A study of Oryza sativa with 4 samples.

Results

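The genes described here are the rice ethylene receptors, the membrane protein EIN2 and the EIL transcription factors, measured in leaves kept under 30% CO2 or in air. They were found by symbol or synonym, with any Os prefix removed, as ERS1, ERS2, ETR, EIN2 or EIL with a number. The rule matched 8 genes in the gene table, all of them on the array, out of 17905 genes measured by at least 1 probe set of their own. A probe set is the group of short array probes that is summarised to a single value. The 8 genes have 10 probe sets of their own, and 3 more probe sets are annotated to several genes of which at least 1 is an EIL gene, which makes 13 of the 57194 probe sets of the series.

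The study exposed young rice plants of the cultivar Senia, with 2 leaves, to CO2 far above its level in air. In the treated group, plants spent 6 h in the dark at 27 ± 2 °C in sealed bags with CO2 injected up to 30%, and in the control group plants spent the same time in the dark in normal air, labelled as 0.04% CO2. All plants had been raised with a photoperiod of 16 h (8 h of darkness), and each group had 2 biological replicates made from the leaves of 10 plants each. The labels do not say whether control plants were bagged, so that 30% CO2 and enclosure cannot be told apart.

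Ethylene is a gaseous plant hormone that controls growth under flooding, ripening and senescence. Its receptors sit in the endoplasmic reticulum and are negative regulators: without ethylene they keep downstream kinases active and EIN2 silent, and binding of ethylene switches them off. EIN2 then passes the signal to EIN3 and EIL proteins, transcription factors that turn on the ethylene response genes. In rice the receptors ERS1 and ERS2 belong to subfamily I, with the conserved residues of a histidine kinase, and ETR2, ETR3 and ETR4 belong to subfamily II. The ERS receptors lack the receiver domain found at the end of other ethylene receptors.

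Under 30% CO2 both subfamily I receptor genes fell past the threshold of the test, as did the EIL gene EIL1B, while no member rose past it. The subfamily II receptor ETR3 had a log2 difference of -1.23, beyond the -0.76 of ERS1, but did not pass. These calls therefore show no difference between the subfamilies. ERS2 was 5.39-fold lower, ERS1 1.70-fold lower and EIL1B 10.3-fold lower than in controls. The better known neighbour of EIL1B, EIL1A, stayed at high signals in all 4 samples, with no detected difference. At an adjusted p of 0.05 in limma, 3 of the 13 probe sets fell and 10 did not pass. Over the whole array 11.5% of probe sets passed (6.78% lower and 4.73% higher). The median log2 difference, 30% CO2 minus control, was -0.16 over the 13 probe sets and 0.02 over all probe sets. Without CO2 replicate 1, control replicate 1 or control replicate 2, 0 of the 13 passed in limma, as did 0 of all 57194 probe sets. With each sample left out in turn, the log2 differences were -3.56 to -3.16 for EIL1B, -2.65 to -2.21 for ERS2 and -0.82 to -0.70 for ERS1.

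**Figure D1:**
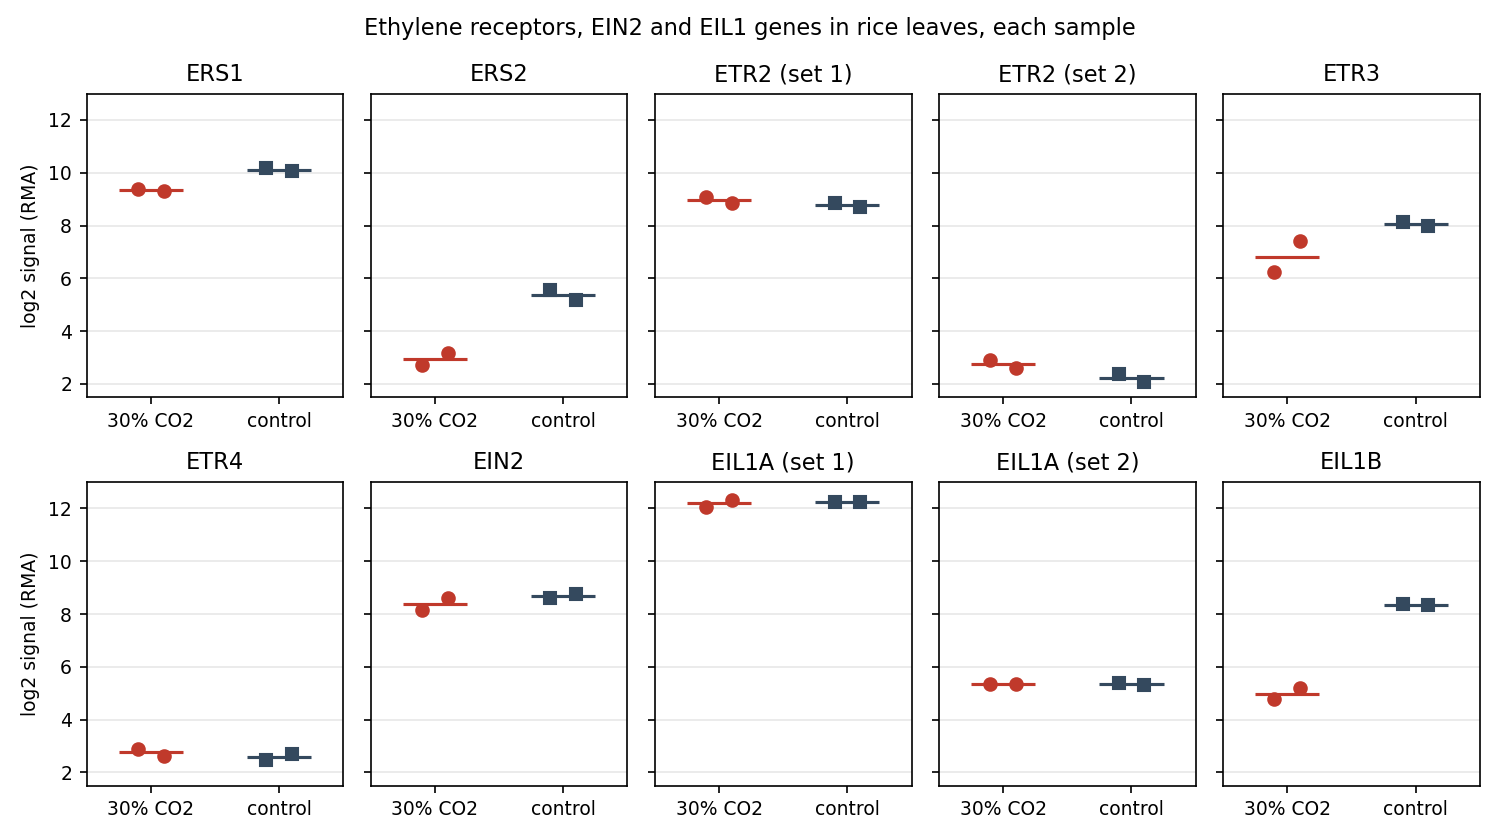
Log2 signal (RMA) of the 10 probe sets annotated to a single member gene; each point is a sample, with 30% CO2 as red circles on the left and control as dark squares on the right, and lines mark group means (n = 2 each). ERS1, ERS2, ETR3 and EIL1B have both CO2 samples below both controls, and the 2 CO2 samples of ETR3, at 6.23 and 7.42, lie far apart.

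Among the receptors, ERS2 (LOC4337850) had log2 signals of 2.72 and 3.16 in the CO2 samples, against 5.57 and 5.17 in the controls. Both CO2 samples lay below both controls, and the gap between the groups was wider than the spread within either. The log2 difference was -2.43 ± 0.22 (SE, n = 2 each; 95% interval -3.01 to -1.85; adjusted p = 0.00774, limma). Of all probe sets, 236 fell by as much or more. The mean of the CO2 samples was at the 30.8th percentile of all probe sets, and the table holds no detection calls, so the size of this fall is uncertain.

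ERS1 (LOC4333832) is the other subfamily I receptor. Its log2 signals were 9.38 and 9.31 in the CO2 samples, against 10.17 and 10.05 in the controls. Replicates lay close together and the groups did not overlap. The log2 difference was -0.76 ± 0.12 (95% interval -1.08 to -0.44; adjusted p = 0.0255, limma), a fall to 59.0% of the control level. Without CO2 replicate 2, where 2477 of all probe sets still passed, ERS1 did not (-0.73, adjusted p = 0.0994, limma), while ERS2 and EIL1B did. Both CO2 samples lay below both controls in 5 of the 13 member probe sets and above both in 2, against 26% and 27.8% of all probe sets, so that this separation alone marks no member.

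The subfamily II receptors did not pass the test. For ETR3 (LOC4331174) CO2 replicate 1 had a log2 signal of 6.23 and CO2 replicate 2 one of 7.42, against 8.13 and 7.97 in the controls. Both CO2 samples were lower, but they differed more from each other than the higher of them did from the lower control. The log2 difference was -1.23 ± 0.40 (95% interval -2.27 to -0.18; unadjusted p = 0.0295, adjusted p = 0.140, limma). This value rests on the choice of CO2 sample, since without CO2 replicate 1 it was -0.63 (adjusted p = 0.174) and without CO2 replicate 2 it was -1.82 (adjusted p = 0.0458).

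ETR2 (LOC4335058) has a pair of probe sets, both with higher values under CO2 and neither past the threshold. The first had 9.09 and 8.87 in the CO2 samples, against 8.86 and 8.68 in the controls, a log2 difference of 0.20 ± 0.15 (95% interval -0.18 to 0.59; adjusted p = 0.469). The second had 2.89 and 2.60 in the CO2 samples, against 2.36 and 2.08 in the controls, with a log2 difference of 0.52 ± 0.17 (unadjusted p = 0.0312, adjusted p = 0.145). Its control mean was at the 7.45th percentile of all probe sets. The interval of the first probe set leaves room for a change in either direction but not for a fall as large as that of ERS1.

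ETR4 (LOC4342865) was dim in every sample. Its log2 signals were 2.90 and 2.63 in the CO2 samples, against 2.48 and 2.71 in the controls, and the groups overlapped. The log2 difference was 0.17 ± 0.16 (adjusted p = 0.606), and at this signal, near percentile 25.2 of all probe sets in the CO2 samples, no statement on ETR4 could be made.

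**Figure D2:**
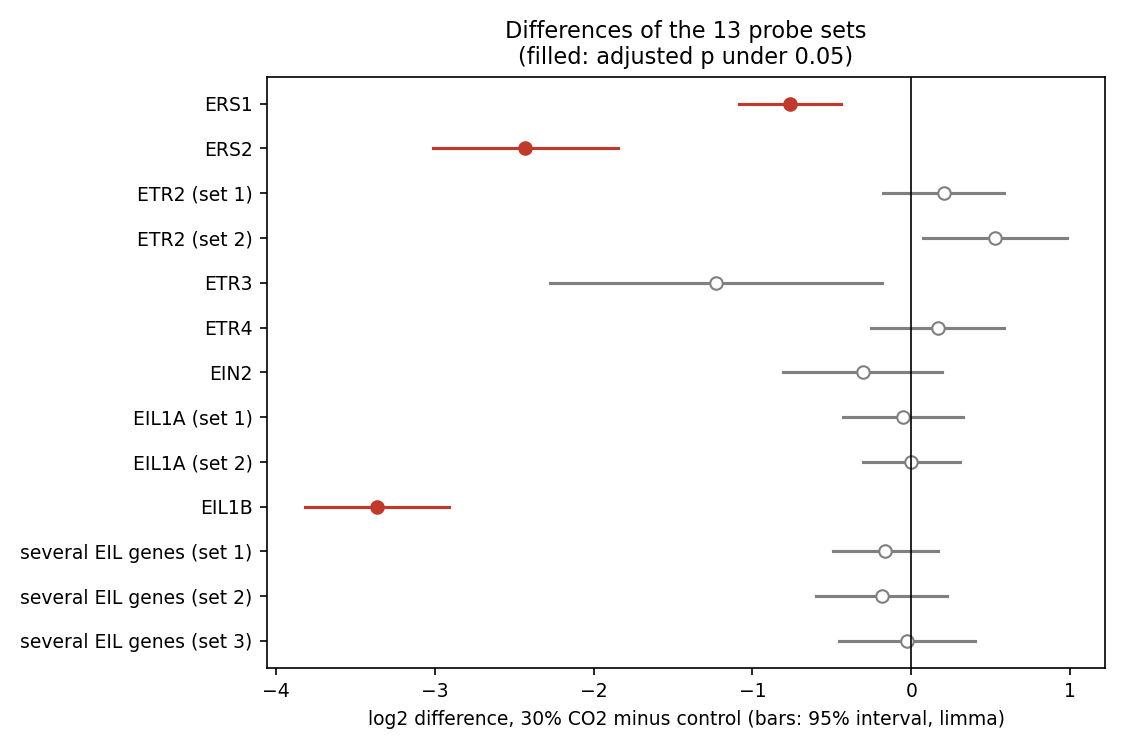
Log2 difference, 30% CO2 minus control, for all 13 probe sets with its 95% interval from limma; red filled points passed an adjusted p of 0.05 and grey open points did not. EIL1B at -3.36, ERS2 at -2.43 and ERS1 at -0.76 are the points that passed, while both EIL1A probe sets lie near 0.

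Whether receptors changed unequally was examined for 4 pairs, and for the pair of EIL1 genes, as the difference of log2 values within each sample. In each pair the gene with the lower log2 difference was put first, so that the negative sign of each result follows from this order. The log2 change of ERS2 minus that of ERS1 was -1.67. Against the first ETR2 probe set the difference was -2.63 for ERS2, -0.97 for ERS1 and -1.43 for ETR3. In each of these pairs both CO2 samples lay below both controls. For the pairs with ETR2 this follows from the separate values, since ETR2 was higher and the other receptors lower in both CO2 samples. For EIL1B minus EIL1A, on the first probe set, the within-sample values were -7.27 and -7.14 in the CO2 samples, against -3.87 and -3.93 in the controls, so that the gap between groups was far wider than the spread within either. With 2 samples against 2 the smallest p of an exact two-sided permutation test is 0.333, so that test can neither call nor dismiss any of the 5 differences, and they are given as values.

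EIN2 (LOC4342431), the transducer between receptors and EIL factors, had log2 signals of 8.15 and 8.61 in the CO2 samples, against 8.60 and 8.77 in the controls. CO2 replicate 2 lay just above control replicate 1, so the groups overlapped. The log2 difference of -0.31 ± 0.19 did not pass (95% interval -0.81 to 0.20; adjusted p = 0.409, limma).

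The name EIL1 is carried by a pair of genes in the table. EIL1A (LOC107276358), also listed as MHZ6, is known in rice as a main transcription factor of the ethylene response of seedlings, and EIL1B (LOC4332697) is its neighbour, with 0 genes listed between them. Only EIL1B fell in the test, and EIL1A did not pass on either of its probe sets. A statement on EIL1 from these arrays therefore depends on which gene is meant.

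EIL1B had log2 signals of 4.78 and 5.19 in the CO2 samples, against 8.37 and 8.33 in the controls. The controls were almost equal and the groups lay far apart compared with the spread within either. The log2 difference was -3.36 ± 0.17 (95% interval -3.81 to -2.91; adjusted p = 0.00378, limma), a fall to 9.73% of the control level. Of all probe sets 55 fell by as much or more, which puts EIL1B at the 0.0944th percentile of the log2 differences. The gene has 1 probe set of its own, so that no second probe set could be compared.

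EIL1A was bright in every sample on its first probe set, with log2 signals of 12.06 and 12.33 in the CO2 samples, against 12.24 and 12.26 in the controls. The controls lay between the CO2 samples. The log2 difference was -0.05 ± 0.15 (adjusted p = 0.873, limma), and its 95% interval of -0.43 to 0.32 leaves out a fall as large as that of EIL1B. On its second probe set EIL1A had the same 5.36 in both CO2 samples, against 5.40 and 5.32 in the controls, a log2 difference of 0.00 (95% interval -0.31 to 0.31). Equal values in both CO2 samples occurred in 733 probe sets of the table. Within samples, the log2 change of EIL1B minus that of EIL1A on its first probe set was -3.31.

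The other 3 EIL probe sets are annotated to EIL1A, EIL1B and another gene, LOC4347171, together, and cannot be given to any of them. Their log2 signals ran between 7.26 and 12.45 in the CO2 samples and between 7.52 and 12.55 in the controls. Their log2 differences were -0.16, -0.19 and -0.03, with adjusted p-values of 0.510, 0.549 and 0.949. In 1 of the 3 the groups did not overlap, with 12.29 and 12.45 under CO2 against 12.52 and 12.55 in controls. The probe set that belongs to LOC4347171 alone had a log2 difference of 0.05 ± 0.14 (adjusted p = 0.865). None of these shared sets showed the fall seen on the probe set of EIL1B. Since they are annotated to EIL1A and LOC4347171 too, they can neither bear out nor contradict that fall.

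**Figure D3:**
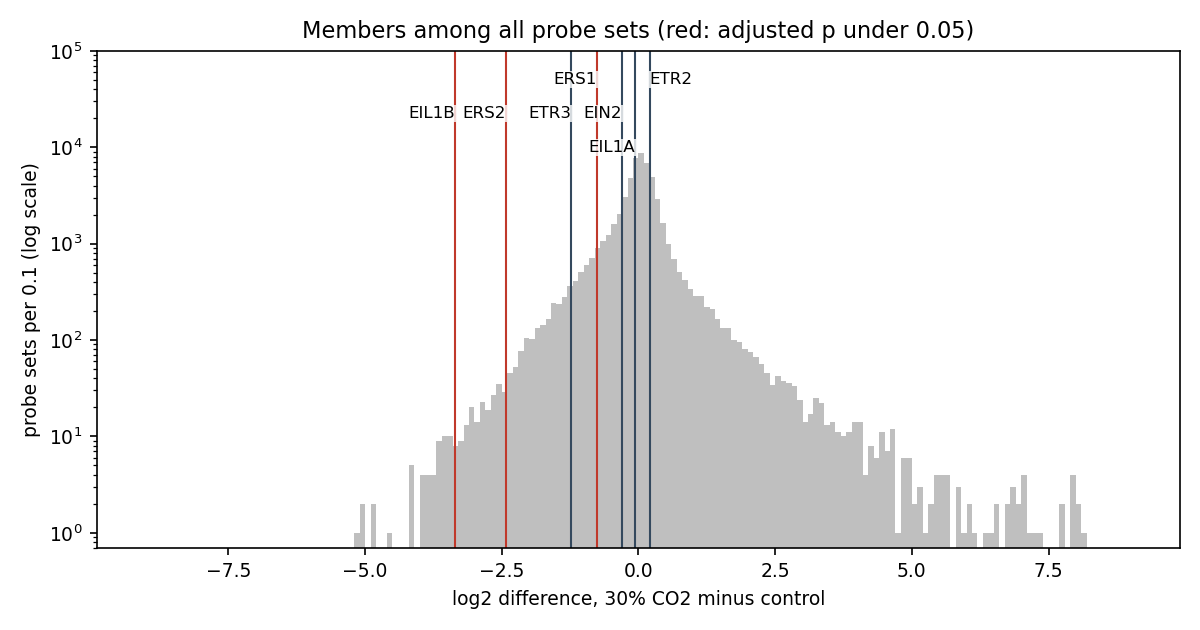
Number of probe sets (log scale) by log2 difference, 30% CO2 minus control, for all 57194 probe sets, with vertical lines at 7 member probe sets; red lines passed an adjusted p of 0.05 and dark lines did not. EIL1B and ERS2 lie in the left tail, and EIL1A and ETR2, each drawn by its first probe set, lie in the central peak.

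The genes with the most similar pattern were sought for EIL1B and ERS2, among 3192 probe sets of named genes, by Euclidean distance between log2 values of the 4 samples after subtracting each probe set's mean. With 4 samples in 2 groups, this measure mostly finds genes with a fall of like size. For EIL1B the nearest were PRIN2 (LOC4346938), a factor of plastid transcription, at a distance of 0.43, the calmodulin-like gene CML20 (LOC4330639) at 0.46 and the chloroplast splicing factor gene RNC1 (LOC4327567) at 0.46. PRIN2 had 4.90 and 5.05 in the CO2 samples, against 8.39 and 7.88 in the controls. For ERS2 the nearest were MRL7 (LOC4327529) at 0.08, BURP2 (LOC4338119) at 0.13 and UPD1 (LOC4326635) at 0.17. MRL7 had 3.37 and 3.86 in the CO2 samples, against 6.33 and 5.92 in the controls. The probe sets of MRL7 and BURP2 end in _x_at and that of RNC1 in _s_at, endings that were left out in an alternative fit. Other probe sets of these genes were not compared.

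Few other genes of the pathway carry a name in the tables used. In ethylene synthesis, 4 of 5 matching genes have 5 probe sets between them: 1 rose, 4 did not pass and 0 fell (median log2 difference 0.00). Over all probe sets 4.73% rose and 6.78% fell. SAM2 (LOC4326996), also listed as SAMS2, for an S-adenosylmethionine synthetase that makes the methyl donor from which ethylene is built, had 11.50 and 11.66 in the CO2 samples, against 10.93 and 10.56 in the controls, on the probe set that rose (log2 difference 0.83 ± 0.17, adjusted p = 0.0479, limma). Its other, dim probe set gave -0.10 (adjusted p = 0.779).

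For the committed steps of ethylene synthesis, the genes matched by name did not pass, and other genes of these steps were not examined. ACO1 (LOC4347225), also listed as EFE, the ACC oxidase that releases ethylene, had 7.65 and 8.68 in the CO2 samples, against 9.84 and 8.89 in the controls. Both CO2 samples lay below both controls, but the spread within both groups was wide. The log2 difference of -1.20 ± 0.46 had an unadjusted p of 0.0497 and an adjusted p of 0.194 in limma. The ACC synthase genes ACS1 and ACS2 stood at 0.17 ± 0.14 and 0.00 ± 0.26 (adjusted p = 0.539 and 1.00). The list of further signalling names matched 2 genes, of which 1 has a probe set. This is MHZ4, an abscisic acid synthesis gene known in rice from a mutant with an altered root response to ethylene, and it did not pass (0.42 ± 0.23, adjusted p = 0.333).

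Of 14 probe sets of genes with an ERF name or the names SK1 and SK2, 3 rose, 0 fell and 11 did not pass, with a median log2 difference of 0.13. They belong to 11 genes, and over all probe sets 4.73% rose and 6.78% fell. The risen genes ERF24, ERF40 and ERF31, at log2 differences of 2.60, 2.44 and 1.70, carry the names DREB1A, DREB2A and DREB1B too, which belong to regulators of cold and drought tolerance. SK1 and SK2 are names that rice shikimate kinases share with ethylene response factors of deepwater rice, and the tables do not say which is meant here. They stood at -0.16 and -0.27 (adjusted p = 0.497 and 0.303).

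The labelled tissue was checked against marker lists. Of the leaf markers 10 genes have 19 probe sets, whose values ran from 2.73 to 13.64 in the CO2 samples and from 2.996 to 13.65 in the controls. Of these 19 probe sets 0 rose, 5 fell and 14 had both CO2 samples below both controls, where over all probe sets 6.78% fell and 26% had both CO2 samples below both controls. Some genes count more than once, as FNR (LOC4342399) does among the 5. No probe set of the RBCS and RCA genes passed, and those of RCA, all among the 14, had log2 differences of -0.07 to -0.05. The 7 root marker probe sets ran from 1.82 to 7.03 in the CO2 samples and from 1.53 to 6.61 in the controls, and 1 fell, that of the iron transporter gene IRT1. Of 24 probe sets for dividing cells and meristem 3 fell and 0 rose. The part of these shifts in the falls of ERS1, ERS2 and EIL1B was not tested, and in whole leaves fewer cells of a type and less RNA per cell cannot be told apart.

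**Figure D4:**
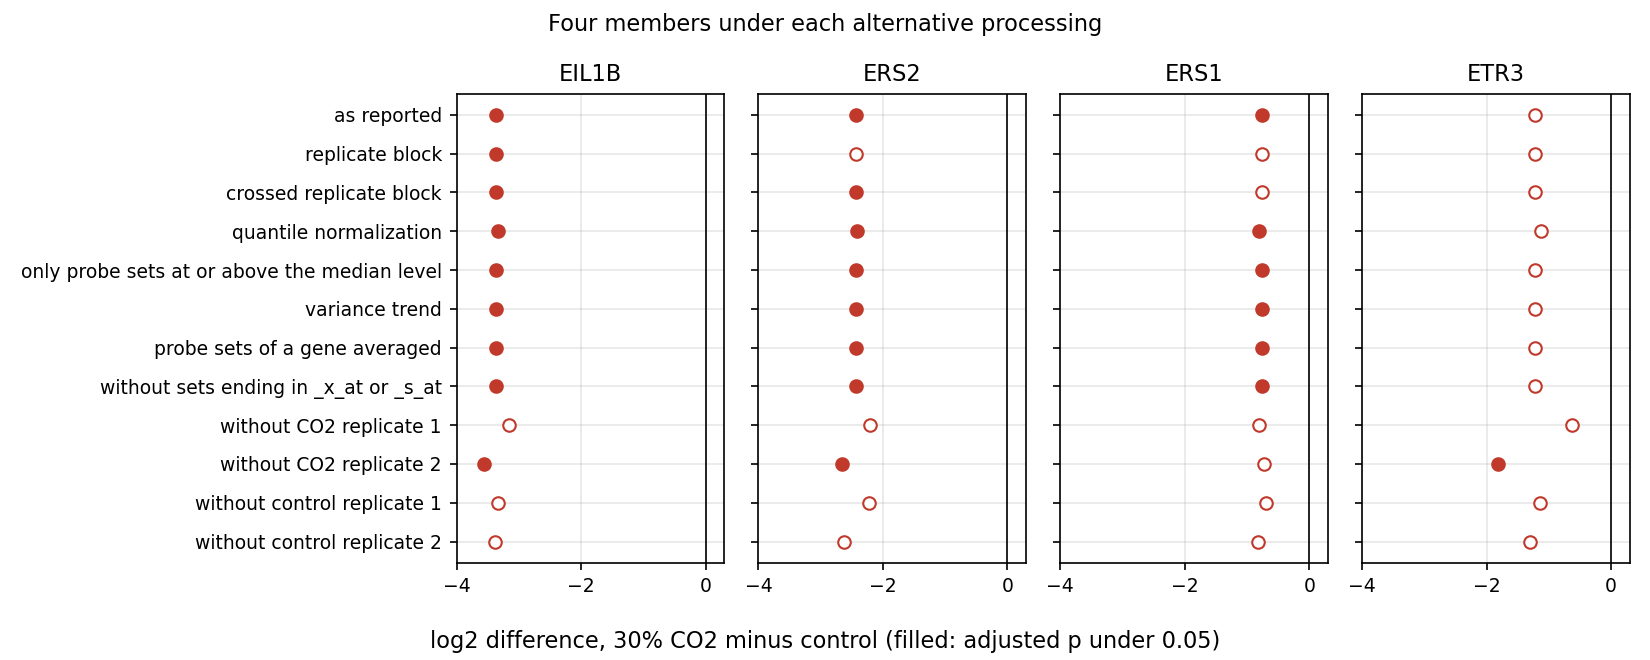
Log2 difference, 30% CO2 minus control, of EIL1B, ERS2, ERS1 and ETR3 as reported and under each alternative processing, listed down the page; filled points passed an adjusted p of 0.05. The differences of EIL1B stay between -3.56 and -3.16 and those of ERS2 between -2.65 and -2.21, while ETR3 spreads from -1.82 to -0.63. ERS1 is an open point under both replicate blocks (adjusted p = 0.0792 and 0.0698) and ERS2 under the uncrossed one (adjusted p = 0.0540).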

How the data were processed

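The authors deposited log2 signals per probe set of Affymetrix rice arrays, hybridised with biotin-labelled RNA of the 4 leaf samples; RMA and limma are named, without versions, per the submitters' processing notes. RNA integrity numbers were above 8 per the labels' protocols. No rescaling was applied, and sample medians were 3.92 and 3.88 under CO2 and 3.85 and 3.86 in controls. The number of arrays limits the precision, and a genome build is not given in the sources used here.

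Gene names came from the array annotation and, by gene identifier, a rice gene table (assembly ASM3414082v1, names and gene order only): 22436 had 1 gene, 95 several and 34663 are unnamed here. Promoters and proteins were not analysed here.

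The test was the two-sided moderated test of limma 3.58.1 (R 4.3.3), with lmFit and eBayes but neither block nor filter, adjusted by Benjamini-Hochberg over all 57194 probe sets, at an adjusted p of 0.05. Adjusted p-values are these unless an alternative fit is named with them. The fit had 2 residual degrees of freedom, to which eBayes added 2.85. The code was tested on simulated data. Errors are limma's standard errors. Plots were made with matplotlib 3.10.9 (Python 3.11.15).

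Members and lists were chosen with earlier results of these data known. Named are all member probe sets, all synthesis and signalling genes, up to 4 response genes past the threshold and 3 most similar genes for 2 members. Alternatives were the replicate block, quantile normalization, a filter on low values, a variance trend and averaged probe sets. Sets ending in _x_at or _s_at, and each sample in turn, were also left out.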

Additional observations from a re-analysis of the deposited data

How the results depend on the processing

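The direction of EIL1B, ERS2 and ERS1 was the same under all 11 alternatives, but most of these could not have changed it. The blocks, the filter, the variance trend, averaging and leaving out other probe sets left these differences as they were. Leaving out a sample could not turn them, since the groups did not overlap. Quantile normalization gave -3.33, -2.41 and -0.80, in that order. The calls held after quantile normalization, with the filter on low values and with a variance trend. They also held with averaged probe sets and without sets ending in _x_at or _s_at. The replicate numbers did not pair the samples (correlation of same-numbered deviations -0.10), and with the replicate block 1 member probe set fell, EIL1B. There ERS2 (-2.43, adjusted p = 0.0540) and ERS1 (-0.76, adjusted p = 0.0792) did not pass in limma, while over all probe sets the calls became 806 higher and 885 lower, against 2706 and 3877, and 1 probe set of the other ethylene lists rose, against 4. A crossed replicate block, chosen after seeing the data, gave 1484 higher and 1994 lower over all probe sets, 2 member probe sets lower (without ERS1, -0.76, adjusted p = 0.0698), and 1 higher and 1 lower in the other lists.

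With each sample left out in turn, where a lone sample is assumed to vary like the other group, differences were -3.56 to -3.16 for EIL1B, -2.65 to -2.21 for ERS2 and -0.82 to -0.70 for ERS1. From 0 to 3 member probe sets fell, from 0 to 2 of the other lists rose, and over all probe sets 0 to 1243 were higher and 0 to 1234 lower. In limma 0 probe sets passed without CO2 replicate 1, control replicate 1 or control replicate 2, where 11506, 9691 and 9246 had an unadjusted p under 0.05. These fits hold 3 samples, and the loss covered every probe set. Without CO2 replicate 2, ERS1 did not pass (adjusted p = 0.0994) and ETR3 did (-1.82). Low signals of ERS2 under CO2, ETR4 and the second ETR2 probe set limit what can be said of their size.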
